A study of Mus musculus with 82 samples.

Results

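The 15 immunoprecipitated (IP) white matter libraries of stroke zones 3, 4 and 5 were compared as one group with the 5 IP libraries of uninjured white matter. These 20 libraries are all the series' IP libraries whose labels give white matter and either exactly one of those zones or no stroke, out of 82 libraries in the whole series. The tissue was mouse brain: the zones came from mice with a white matter stroke, and the titles of the other 5 libraries call the tissue uninjured. The letter S in their column names was read as sham, which the labels do not spell out. By the labels each zone held 5 libraries, where the design text speaks of 4 to 5. Every library of both groups came from laser-captured sections of brains perfused with 0.5% paraformaldehyde, and its RNA was pulled down with tagged ribosomes by the method of Sanz and colleagues. That method recovers ribosomes from the cells in which a ribosomal protein carries a tag, and the series calls the result astrocyte-enriched. The labels name neither the mouse line, the promoter behind the tag and the age, nor the time after stroke and how far each numbered zone lay from the lesion. The labels do not tie libraries to animals, so several zones of one animal may stand in the zone group. Where they do, the pooled test takes libraries of 1 animal as independent, so its p-values can be too small. The tests between zones would then ignore a pairing, and their p-values can err in either direction. In any case the p-values below measure only the spread between these libraries.

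Astrocytes are the glial cells that clear glutamate and potassium, carry the water channel of the brain's vessel border and respond to injury. In that response they are known to raise intermediate filaments such as Gfap and Vim and secreted proteins such as Serpina3n. White matter consists largely of myelinated axons with oligodendrocytes, astrocytes and microglia. Microglia are the resident phagocytes of the brain. They make complement C1q and lysosomal proteases, and after damage they clear axon and myelin debris.

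Total counts ran from 6517595 to 25895011 per library, of which 1582050 to 4947295 lay outside ribosomal RNA. Zone 3 replicate 1 and zone 5 replicate 3 stood apart, with 8215 and 6380 genes detected against 10932 to 19135 in the other 18 libraries. Levels are given as CPM, counts scaled to a library total of 1000000, after the TMM method, which sets a factor for each library from genes it takes as unchanged. The factor was 0.27 for zone 3 replicate 1 and 0.41 for zone 5 replicate 3, against 0.67 to 1.39 elsewhere. Their counts outside ribosomal RNA, 1718943 and 1987048, were not the lowest: uninjured replicate 2 had 1582050 with 14217 genes detected. They are called the gene-poor libraries here, and results that rest on them are given with and without them.

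**Figure D1:**
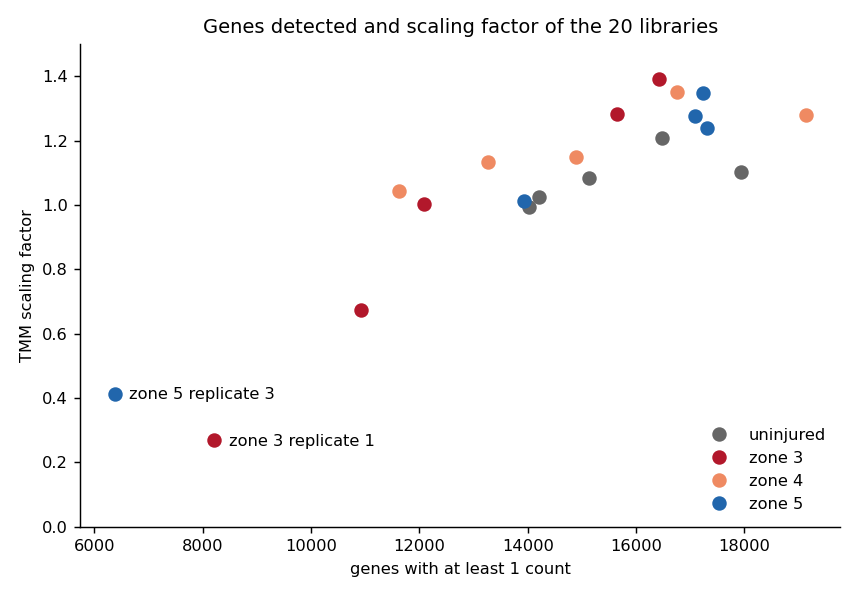
Number of genes with at least 1 count (x axis) and TMM scaling factor (y axis) for each of the 20 libraries, coloured by group. Zone 3 replicate 1 (8215 genes, factor 0.27) and zone 5 replicate 3 (6380 genes, factor 0.41) lie at the lower left, and the other libraries have factors from 0.67 to 1.39.

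Astrocyte markers were present in both groups. Per exon length and without TMM scaling, as TPM (length-corrected counts brought to a sum of 1000000), the glutamate transporter Slc1a2 had a median of 740.6 over the zone libraries and 462 over the uninjured ones. Glul, glutamine synthetase, had medians of 2085 and 1256 TPM on the same scale. Other astrocyte identity genes were far lower, such as Gja1 at 24.1 and 8.14 TPM and Aldh1l1 at 19.4 and 8.71 TPM. Aldh1l1 had 0 counts in 1 zone library. Neuronal transcripts were present as well, with medians for Snap25 of 496 and 101 TPM. Those of Camk2a were 248 and 91.5 TPM, and those of Thy1 162 and 15.2 TPM. Myelin transcripts were higher still, with median levels of Mbp of 4548 TPM in the zones and 4639 TPM in uninjured tissue. Endothelial Pecam1 had medians of 3.00 and 4.14 TPM, and the pan-leukocyte gene Ptprc 1.89 and 0.248 TPM. Of 13 blood leukocyte markers, 1 had enough counts to be tested, and 4 had no count in any of the 20 libraries. In such bulk libraries, a change in the number of cells of a type and a change in RNA per cell cannot be told apart.

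No gene passed the pooled comparison of the 15 zone libraries with the 5 uninjured ones (0 of 12858 tested, 0%, edgeR quasi-likelihood test, Benjamini-Hochberg adjustment, threshold 0.05; lowest adjusted p = 0.404). At an unadjusted p under 0.05, 618 genes were higher in the zones (4.81% of those tested) and 291 lower (2.26%), and these shares are the background for each list below. The median log2 fold change of all tested genes was 0.21, and it was 0.33 with DESeq2's size factors in place of TMM, so single fold changes are to be read against that shift. Without both gene-poor libraries edgeR also called 0 genes, with 1124 at an unadjusted p under 0.05 (5.64% higher and 3.13% lower). Other tools made calls on the same 20 libraries. DESeq2 called 57 genes higher (0.443%) and 9 lower (0.07%), and limma voom with sample quality weights called 16 higher (0.124%) and 63 lower (0.49%). They shared 11 genes in the same direction, of which 8 were higher in the zones: Ctsb, Csf1r, C1qc, Spp1, Lag3, Thy1, Diras2 and Atp6v1g2. The 3 lower ones were Lncpint, Osgepl1 and the predicted gene Gm11653. Of the 8 higher ones, Spp1 and Lag3 had 0 and 1 counts over the uninjured libraries. These 2 could pass the low-count filter only through the zone libraries, so their calls are description. Without the 2 gene-poor libraries DESeq2 called 162 genes higher (1.26%) and 19 lower (0.148%), and limma voom 26 higher (0.203%) and 125 lower (0.975%). Both tools then called 31 genes in common, 21 higher and 10 lower, and these included all 11.

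Neuronal transcripts had higher levels in most zone libraries, although none passed edgeR's pooled test. Snap25, Thy1, Diras2 and Atp6v1g2 were named for being among the 8 rises with the lowest unadjusted p. Snap25 was also a reference gene, and Diras2 and Atp6v1g2 are not on the neuron list. Their tallies over libraries are therefore description, and the share of all genes with such tallies is not given. Snap25, a protein of the synaptic vesicle fusion machinery, ranged from 206 to 9527 CPM in the 15 zone libraries with a median of 1328 CPM. The uninjured libraries had 262, 359, 361, 282 and 476 CPM. Thus 14 of 15 zone libraries lay above every uninjured library, and zone 3 replicate 3 lay below them all. The log2 fold change was 2.82 ± 0.77 (SE; 95% interval 1.26 to 4.38, n = 15 and 5), which did not pass edgeR's test (adjusted p = 0.69). It was 2.04 ± 0.49 without the gene-poor libraries (adjusted p = 0.217). DESeq2 gave an adjusted p of 0.0592 and limma voom 0.0258 over all 20 libraries. When the 3 zones of each replicate number were summed first, giving 5 sums against 5 libraries, Snap25 passed edgeR's test at 2.31 ± 0.35 (adjusted p = 0.0374). In that fit 2 of 12878 tested genes passed, and whether a replicate number marks an animal is not given.

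Thy1, a surface glycoprotein of neurons, ranged from 35.9 to 1610 CPM in the zones with a median of 176 CPM. Its uninjured levels were 15.5, 16.8, 64.6, 26.5 and 48.7 CPM, and 12 of 15 zone libraries lay above all of them. The log2 fold change was 3.03 ± 0.84 with edgeR (adjusted p = 0.69), and both DESeq2 (adjusted p = 0.00556) and limma voom (adjusted p = 0.0311) called it higher. Diras2, a small GTPase of the Ras family, had a zone median of 119 CPM and a range of 28.4 to 4580 CPM. It stood at 8.03, 3.74, 35.5, 20.9 and 3.07 CPM in uninjured tissue, and 14 of 15 zone libraries lay above these. The highest value was that of the gene-poor zone 5 replicate 3. Stmn2, a microtubule regulator of axons, had a zone median of 48.3 CPM against 7.48 CPM in uninjured libraries, and Atp6v1g2, a subunit of the vesicular proton pump, 167 against 40.0 CPM.

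All 20 genes of the neuron list were tested, and 19 had a fold change above 0. Their median log2 fold change was 1.99, beside 0.21 for all genes. At an unadjusted p under 0.05, 13 of the 20 were higher and 0 lower, where 4.81% of all genes were higher. With edgeR's adjusted p 0 of 20 passed; DESeq2 called 4 and limma voom 3, all higher. The summed level of the list ran from 1026 to 2613 CPM in the uninjured libraries and from 1478 to 28440 CPM in the zones, and 13 of 15 zone sums exceeded every uninjured sum. Without the gene-poor libraries the median was 1.71 and the count again 13 of 20. The series describes the libraries as enriched for astrocytes, and whether these transcripts came from neurons or their processes in the captured tissue was not tested.

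**Figure D2:**
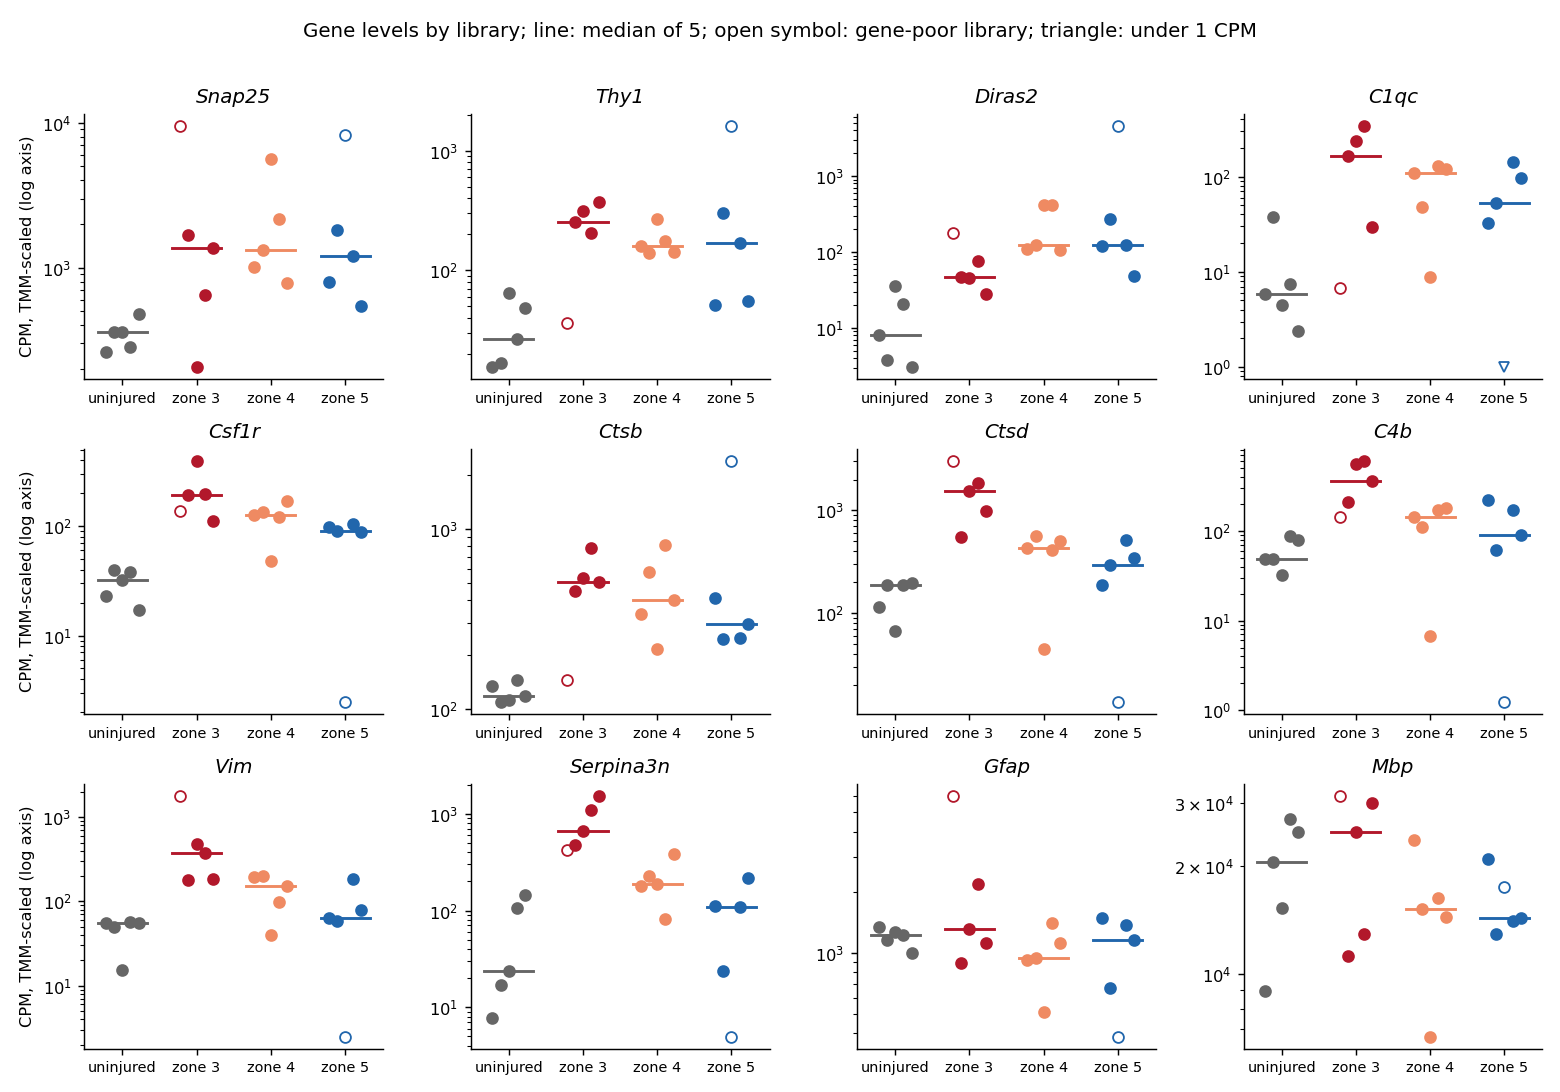
TMM-scaled CPM on a log axis for 12 genes in each of the 20 libraries, by group, with a line at the median of 5 and open symbols for the 2 gene-poor libraries; a triangle marks a value under 1 CPM. The zone points of Snap25, Csf1r and Ctsb lie above the uninjured points in 14 of 15 libraries each, while those of Gfap and Mbp spread around them.

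Several genes of microglia and of the lysosome, though not all, also had higher levels in most zone libraries, again without passing edgeR's pooled test. Csf1r, the receptor on which microglia depend for survival, ranged from 2.48 to 396 CPM in the zones with a median of 122 CPM. Its uninjured levels were 23.2, 39.9, 32.3, 37.8 and 17.0 CPM, below 14 of 15 zone libraries; the exception was zone 5 replicate 3. The log2 fold change was 2.16 ± 0.75 with edgeR (adjusted p = 0.696), and it passed with DESeq2 (adjusted p = 0.03) and limma voom (adjusted p = 0.0311). Ctsb, a lysosomal cysteine protease, ranged from 144 to 2398 CPM with a median of 411 CPM, against 134, 109, 112, 145 and 118 CPM in uninjured tissue. Only zone 3 replicate 1 fell within the uninjured range. Its log2 fold change of 2.17 ± 0.67 did not pass with edgeR (adjusted p = 0.69) but did with DESeq2 (adjusted p = 0.0118) and limma voom (adjusted p = 0.0257), and in the 5 summed samples with edgeR at 1.84 ± 0.29 (adjusted p = 0.0374). Ctsd, the lysosomal aspartic protease, had medians of 505 and 185 CPM, and 12 of 15 zone libraries lay above all uninjured ones.

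C1qc encodes a chain of C1q, the first component of the classical complement pathway. It ranged from 0 to 341 CPM in the zones with a median of 95.7 CPM. The uninjured libraries had 5.79, 37.4, 4.52, 7.48 and 2.39 CPM, so that 10 of 15 zone libraries lay above all of them. Its log2 fold change was 3.15 ± 1.04, and DESeq2 (adjusted p = 0.0362) and limma voom (adjusted p = 0.0252) called it higher. C4b, a later component of that pathway whose reads may be shared with the near-identical C4a, had medians of 170 and 48.6 CPM and 12 of 15 zone libraries above the uninjured range. B2m, the light chain of class I antigen-presenting molecules, had medians of 110 and 36.2 CPM and 11 of 15 above.

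Some tested genes, not all of them microglial or lysosomal, were almost without counts in uninjured tissue. They could pass the low-count filter only through the zone libraries, so their folds are given as description. Lag3, Cib2 and Spp1 were also named because of their low unadjusted p. Of all tested genes, 13 had 0 counts over the 5 uninjured libraries, and 0 genes had none over the 15 zone libraries. Spp1, the secreted phosphoprotein osteopontin, had 0 counts over the 5 uninjured libraries and 229 over the zones, found in 10 of 15. Against a floor of 3 counts over the uninjured group, which is 0.192 CPM, its group level was at least 30.5-fold higher in the zones, and at least 24.5-fold without zone 4 replicate 2. C3, the central complement component, was at least 19.9-fold higher on the same floor, with counts in 11 of 15 zone libraries, and Cib2, a calcium and integrin binding protein, at least 95.5-fold higher with counts in 11 of 15. Of the 717 zone counts of Cib2, 376 came from zone 4 replicate 3, and without that library the bound was 48.8-fold. Lag3, an inhibitory receptor known from T cells, had 1 count in uninjured tissue and 655 in the zones, a ratio of 262 with a 95% counting interval of 46.8 to 10400. Zone 3 replicate 5 held 280 of these counts, and without it the ratio was 155. Such intervals and floors cover counting error only.

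Of the 12 homeostatic microglia genes all were tested, with a median log2 fold change of 0.69. At an unadjusted p under 0.05, 1 of 12 was higher, beside 4.81% of all genes. Without the gene-poor libraries the median was 0.83 and 4 of 12 were higher. Their summed level ran from 244 to 416 CPM in uninjured libraries and from 81.7 to 1956 CPM in the zones, with 12 of 15 zone sums above all uninjured sums. Cx3cr1, the fractalkine receptor of microglia, had medians of 76.4 and 40.4 CPM and a log2 fold change of 0.79 ± 0.74. P2ry12 of the same list was not higher by its medians, 15.8 TPM in the zones and 18.3 TPM in uninjured tissue. It had 0 counts in 2 zone libraries. All 18 lysosome and phagocytosis genes were tested, and 17 had a fold change above 0. Their median was 1.27, and 3 of 18 were higher and 0 lower at an unadjusted p under 0.05. Without the gene-poor libraries 9 of 18 were higher, beside 5.64% of all genes. Of the 17 complement genes 11 passed the filter on low counts, of which 4 were higher. Of the 18 microglia and macrophage activation genes 11 passed it, with a median of 3.27 and 5 higher. A gene could pass that filter through the zone libraries alone, so those 2 lists are given as description.

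Of the genes of reactive astrocytes, Vim and Serpina3n had higher zone levels and Gfap had not. Vim, the intermediate filament of reactive astrocytes and of several other cell types, ranged from 2.48 to 1801 CPM in the zones with a median of 181 CPM. It stood at 55.3, 49.2, 15.5, 56.8 and 55.5 CPM in uninjured tissue, and 13 of 15 zone libraries lay above these. The log2 fold change was 2.55 ± 0.93 (adjusted p = 0.696), and 1.91 ± 0.54 without the gene-poor libraries (adjusted p = 0.317). Serpina3n, a secreted serine protease inhibitor from a family of close copies, ranged from 4.95 to 1542 CPM with a median of 216 CPM. Uninjured libraries had 7.66, 16.8, 23.6, 107 and 145 CPM, and 10 of 15 zone libraries exceeded them all. Its log2 fold change was 2.67 ± 0.95 (adjusted p = 0.696). DESeq2 without the gene-poor libraries called both genes higher, Vim at an adjusted p of 0.0178 and Serpina3n at 0.0128; limma voom called neither.

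Gfap, the filament protein most used to mark reactive astrocytes, overlapped between the groups. It ranged from 384 to 6027 CPM in the zones with a median of 1118 CPM, and stood at 1342, 1159, 1274, 1229 and 1001 CPM in uninjured tissue. Of the zone libraries 5 lay above and 6 below the uninjured range. The log2 fold change was 0.26 ± 0.54 (95% interval -0.83 to 1.34), and it was -0.06 ± 0.27 without the gene-poor libraries, so its sign was not fixed. Of the 14 pan-reactive genes 8 passed the low-count filter, with 3 higher at an unadjusted p under 0.05 and a median of 2.58; here too a gene could pass through the zone libraries alone.

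The astrocyte identity list had a median log2 fold change of 0.67, with 20 of 20 genes tested, 15 above 0 and 1 higher at an unadjusted p under 0.05. Without the gene-poor libraries the median was 0.36, with 17 above 0 and 3 higher. Slc1a2, the main glutamate transporter, ranged from 2687 to 23720 CPM in the zones (median 4857) and had 2185, 2885, 3263, 3540 and 4056 CPM in uninjured tissue; 8 of 15 lay above. Aqp4, the water channel of astrocyte endfeet, had medians of 265 and 155 CPM and a log2 fold change of 1.22 ± 0.61 (adjusted p = 0.709). Aldh1l1, a folate enzyme used to mark astrocytes, had medians of 30.5 and 20.6 CPM and a fitted log2 fold change of -0.55 ± 0.82, whose sign turned with limma voom (0.01). Cst3, the secreted protease inhibitor cystatin C, was the single gene with all 15 zone libraries above all 5 uninjured ones (0.00778% of tested genes; it was chosen after its values were seen), where 6 genes lay below in all 15 (0.0467%). Cst3 ran from 780 to 1375 CPM against 535 to 706 CPM. Without TMM scaling 12 of 15 lay above and 2 below, so the separation rests on the scaling.

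Genes of myelin and of the oligodendrocyte lineage had fold changes on both sides of 0, and none passed the test. Mbp, myelin basic protein, ranged from 6679 to 31400 CPM in the zones (median 15140) and had 8972, 20540, 15260, 27000 and 24780 CPM in uninjured tissue. The ranges overlapped, and the log2 fold change was -0.12 ± 0.38 (95% interval -0.89 to 0.64). Over the 19 myelin genes the median was 0.01, with 0 higher and 0 lower at an unadjusted p under 0.05. By zone the median was 0.38 in zone 3 with 13 of 19 above 0, and -0.20 and -0.39 in zones 4 and 5 with 3 of 19 above 0 in each. Without the gene-poor libraries the pooled median was -0.16, with 6 of 19 above 0, 0 higher and 2 lower. Aspa, the enzyme that cleaves N-acetylaspartate in oligodendrocytes, lay below all uninjured libraries in 9 of 15 zone libraries (medians 139 and 338 CPM; log2 -1.13 ± 0.71). Opalin, an oligodendrocyte membrane protein, lay below in 13 of 15, with medians of 93.6 and 183 CPM. Its fitted value was nonetheless 2.63 ± 1.87, because zone 3 replicate 1 held 18000 CPM, and it was -1.22 ± 0.48 without the gene-poor libraries. The precursor list of 12 genes had a median of 0.14, the 13 tested endothelial genes 0.00 and the 9 tested mural genes 0.33. Ldha, lactate dehydrogenase A of glycolysis, had medians of 37.2 and 1.02 CPM and 11 of 15 zone libraries above; 3 of the 15 tested genes of its glycolysis and hypoxia list were higher at an unadjusted p under 0.05.

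Among the lower genes, the most abundant one examined was Malat1. Malat1, a long non-coding RNA retained in the nucleus (chr19:5795690-5802672, GRCm38, minus strand), stood at 93780, 63180, 55960, 87950 and 64080 CPM in uninjured libraries. It ranged from 10830 to 201700 CPM in the zones with a median of 20790 CPM, and 11 of 15 zone libraries lay below the uninjured range. The 2 that lay above it were the gene-poor ones. The log2 fold change was -0.73 ± 0.54 with edgeR (adjusted p = 0.78). Without the gene-poor libraries it was -1.53 ± 0.29 (adjusted p = 0.0669), and limma voom on all 20 libraries called it lower at -1.94 ± 0.24 (adjusted p = 0.00118). With DESeq2's size factors in edgeR the sign turned to 0.11. Without any scaling, an alternative chosen after seeing the data, the zones ran from 14440 to 56220 CPM and the uninjured libraries from 64060 to 101500 CPM, so the groups did not overlap in 15 of 15 zone libraries. Malat1 then passed edgeR's test at -1.35 ± 0.24 (adjusted p = 0.00256). How many other genes separate the groups in unscaled values is not given here. In zones 1 and 2 of the same region, unscaled Malat1 ran from 16250 to 42520 CPM (median 24590), also below every uninjured library. A low unscaled level was thus found outside the zones compared here as well, whose median was 25790 CPM. The predicted gene Gm37376 lies within Malat1 on the other strand, and since the use of strand in counting is not given, their reads cannot be told apart. The list of 10 nuclear long non-coding RNAs did not fall as a set. Of its 9 tested genes 6 had a fold change above 0, with a median of 1.30. At an unadjusted p under 0.05, 1 was higher and 0 lower. Without the gene-poor libraries the median was 0.51, with 6 of 9 above 0, 1 higher and 1 lower.

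**Figure D3:**
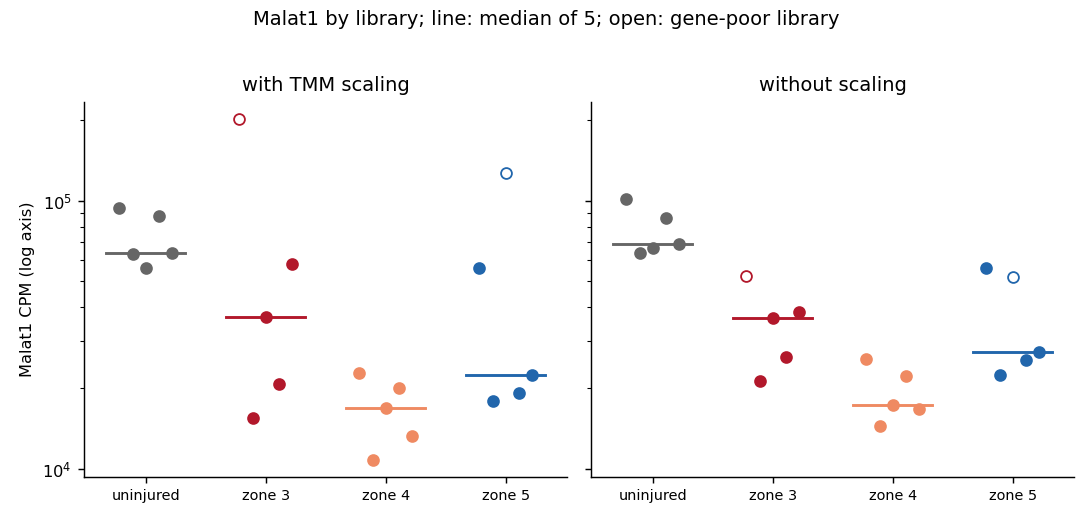
Malat1 CPM on a log axis in each of the 20 libraries, with TMM scaling (left) and without scaling (right), with a line at the median of 5 and open symbols for the 2 gene-poor libraries. Without scaling every zone point lies below every uninjured point, at most 56220 against at least 64060 CPM; with TMM scaling the gene-poor libraries stand at 201700 and 127200 CPM.

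Other low values concerned sparsely counted genes. Lncpint, a long non-coding RNA, had zone values from 0 to 10.99 CPM (median 0.902) against 17.9, 6.23, 72.0, 2.24 and 97.5 CPM, and 12 of 15 lay below. Osgepl1, a tRNA-modifying enzyme of mitochondria, lay below in 14 of 15, with medians of 2.62 and 26.5 CPM. Both passed with DESeq2 (adjusted p = 0.0453 and 0.0315) and limma voom (0.0116 and 0.00568). Of the genes of dividing cells, Mki67 lay below in 13 of 15 (medians 5.41 and 37.1 CPM; log2 -1.85 ± 0.94) and Cenpf, a kinetochore protein, in 6 of 15 (medians 2.04 and 10.6 CPM). Of the 15 cell cycle genes 7 were tested, with a median log2 fold change of -0.51 and 3 above 0. At an unadjusted p under 0.05, 0 were higher and 1 lower. Without the gene-poor libraries the list median was -2.86 in zone 3 and -1.66 in zone 4, with 2 of 9 above 0 in each. In zone 5 it was 0.22, with 6 of 9 above 0. The uninjured Cenpf levels were 20.6, 10.6, 10.01, 232 and 1.02 CPM, and its log2 fold change was -4.27 ± 1.04 (adjusted p = 0.69).

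Each zone was also set against the same 5 uninjured libraries, which the 3 comparisons share. Over all 20 libraries edgeR called 0 genes in zone 3 (0%; DESeq2 294), 0 in zone 4 (0%; DESeq2 43) and 1 in zone 5 (0.00778%; DESeq2 61). At an unadjusted p under 0.05 there were 1564 genes in zone 3 (7.75% higher, 4.41% lower), 770 in zone 4 (3.86% higher, 2.13% lower) and 900 in zone 5 (5.76% higher, 1.24% lower). The zone 5 gene was Diras2, at 6.16 ± 1.15 (adjusted p = 0.0391); without the gene-poor zone 5 replicate 3 no gene passed there.

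Without the 2 gene-poor libraries, zone 3 had 20 genes that rose (0.146% of 13743 tested) and none that fell. The genes of this paragraph and the next were named after their values were seen. They included complement C1qb, C1qc and C4b, the microglial receptor Csf1r, lysosomal Ctsb and Ctsd, the class I light chain B2m, Lag3, the astrocyte response genes Vim and Serpina3n, and neuronal Thy1. The matricellular protein Sparc, the galectin-3-binding protein Lgals3bp, the Wnt pathway inhibitor Axin2 and the interferon-induced surface protein Ly6e were also among them. Lag3, with 1 count in uninjured tissue, could pass the low-count filter only through the zone libraries, so its call is description. Ctsd (chr7:142375911-142388038, GRCm38) had 3048, 545, 1541, 1835 and 998 CPM in zone 3, the first from the gene-poor library, and 114, 186, 66.5, 185 and 197 CPM in uninjured tissue. All 5 zone 3 libraries lay above every uninjured one, and the log2 fold change was 3.02 ± 0.51 over the 18 libraries (adjusted p = 0.0131) and 3.41 ± 0.82 over the 20 (adjusted p = 0.132). Serpina3n had 424, 478, 672, 1105 and 1542 CPM in zone 3, again all above the uninjured libraries, at 3.96 ± 0.69 over the 18 (adjusted p = 0.0131). When each of the 18 libraries was left out in turn, Ctsd and Serpina3n passed in all 18 fits, Axin2 and Csf1r in 15, Ctsb in 14, C1qc in 13, and Vim and C4b in 11. The count for zone 3 ran from 3, without uninjured replicate 1 or 5, to 28. Axin2 and C1qb each had their highest level by far in zone 3 replicate 5 (1377 and 1346 CPM) and did not pass without it. Of the other genes named here, Lag3, Sparc and Ly6e did not pass without that library either.

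In zone 4 the 18 libraries gave 5 genes (0.0364%). Snap25 rose by 2.59 ± 0.49 on the log2 scale, Diras2 by 3.98 ± 0.70 and Hpcal4, a neuronal calcium sensor, by 2.94 ± 0.56 (adjusted p = 0.0278, 0.0118 and 0.0278), and Malat1 and the overlapping Gm37376 fell. Zone 4 levels of Hpcal4 were 229, 706, 1077, 451 and 260 CPM, above the uninjured 87.8, 56.7, 158.5, 13.8 and 26.9 CPM in 5 of 5 libraries. Malat1 stood at 22730, 10830, 16890, 20010 and 13310 CPM in zone 4, all below the uninjured libraries, and fell by 2.16 on the log2 scale (SE 0.33, adjusted p = 0.00116). It passed in all 18 fits with 1 library left out, and Diras2 in 16, Snap25 and Hpcal4 in 12. In zone 5 edgeR called 0 genes over the 18 libraries (579 at an unadjusted p under 0.05; lowest adjusted p = 0.628), where Csf1r was at 1.66 ± 0.52 and Thy1 at 2.03 ± 0.55. Zones 3 and 5 each stood at 4 libraries in these fits and zone 4 at 5.

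**Figure D4:**
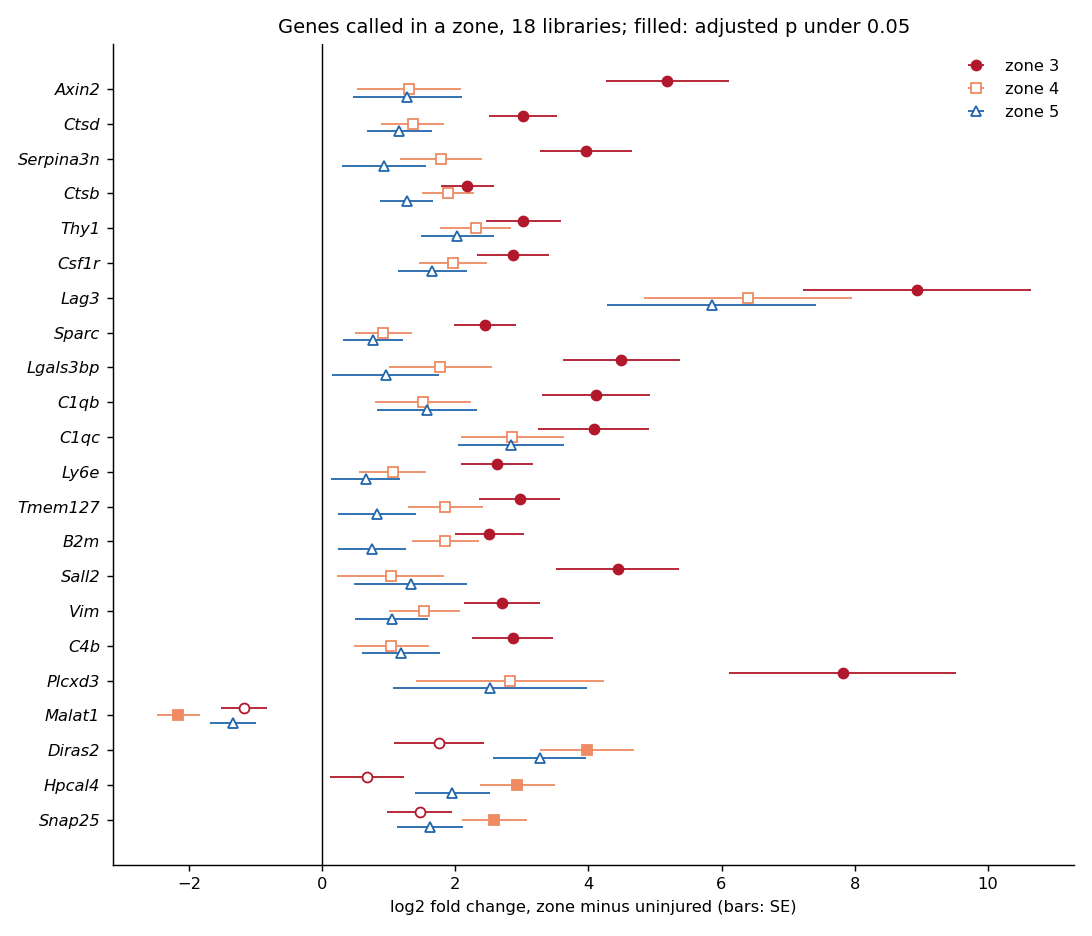
Log2 fold change against uninjured tissue, with SE, of most of the genes that passed in zone 3 or zone 4 over the 18 libraries, shown for each zone, without the predicted genes Gm4366 and Gm37376; filled symbols have an adjusted p under 0.05. Ctsd is at 3.02 in zone 3, 1.36 in zone 4 and 1.16 in zone 5, and Malat1 lies below 0 in each zone.

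The zone 3 genes had smaller fold changes in zones 4 and 5, as their choice by the zone 3 test favours. Over the 18 libraries none differed among zones by the test, whereas with all 15 zone libraries Axin2 (adjusted p = 0.0491), Plcxd3 (adjusted p = 0.0448) and the predicted gene Gm4366 (adjusted p = 0.0436) did. Serpina3n was at 3.96 ± 0.69 in zone 3, 1.78 ± 0.62 in zone 4 and 0.93 ± 0.64 in zone 5 over the 18 libraries, and its test of a difference among zones gave an adjusted p of 0.16. Ctsd was at 3.02, 1.36 and 1.16 (adjusted p = 0.412 among zones). A test over the 3 zone means called 266 of 11472 genes (2.32%) with all 15 libraries. Zone 3 replicate 1 was the highest library for 135 of them and zone 5 replicate 3 for 114, and without both libraries 0 genes passed (884 at an unadjusted p under 0.05). The replicates of zone 3 resembled each other least, with a median correlation of log2(CPM + 1) across genes of 0.551 against 0.684 in uninjured tissue; genes are not independent replicates.

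**Figure D5:**
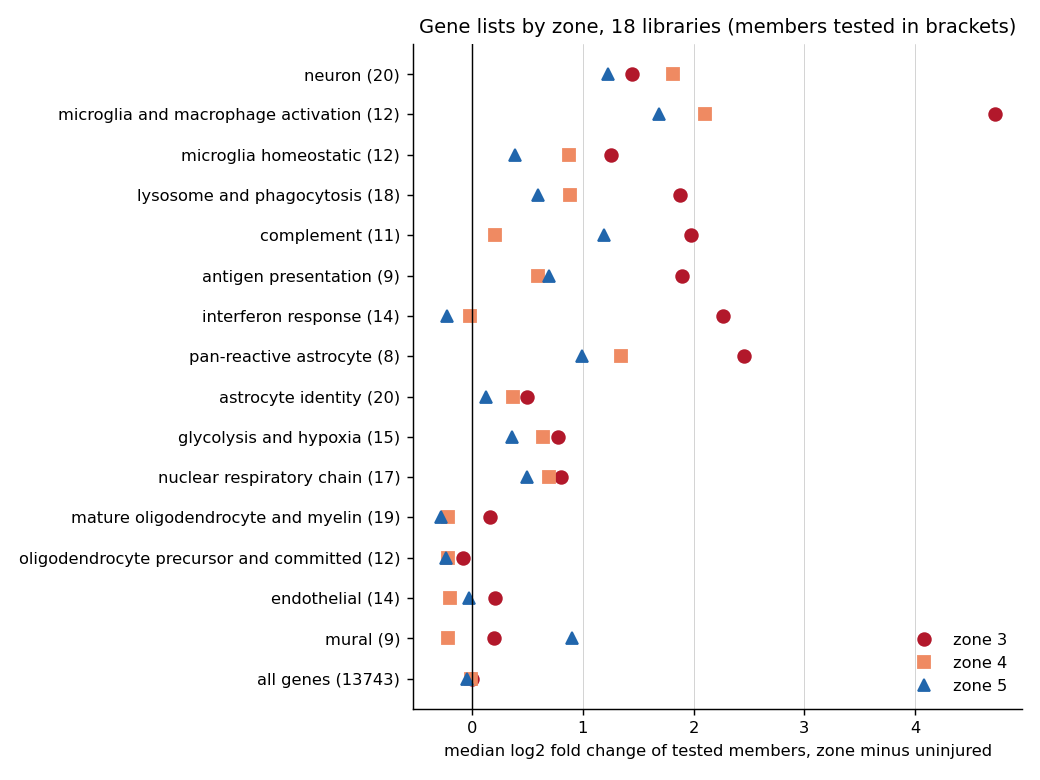
Median log2 fold change against uninjured tissue of the tested members of 15 gene lists and of all genes, for zones 3, 4 and 5 over the 18 libraries, with the number of members tested in brackets. The neuron list lies between 1.23 and 1.82 in the 3 zones, the myelin list at 0.16, -0.22 and -0.28, and the medians of the microglial, lysosomal, complement and pan-reactive lists are highest in zone 3.

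By list, the neuron genes had medians of 1.45, 1.82 and 1.23 in zones 3, 4 and 5 over the 18 libraries, with 10, 12 and 7 of 20 higher at an unadjusted p under 0.05. The shares of all genes were 6.83%, 6.37% and 2.71% higher and 5.16%, 4.5% and 1.51% lower. The lysosome and phagocytosis genes had 13, 5 and 2 of 18 higher, with medians of 1.87, 0.89 and 0.60. The interferon response list had a median of 2.27 in zone 3 and of -0.02 and -0.23 in zones 4 and 5, among the 14 of 18 genes that passed the filter; since a gene could pass through 1 zone alone, these medians are description. Whether lists differed among zones was not tested.

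Zones 1 and 2 of the same region, 10 IP libraries, are the most similar groups. Against them zones 3 to 5 gave 0 called genes of 10668 (0%; 811 higher, 7.6%, and 589 lower, 5.52%, at an unadjusted p under 0.05; lowest adjusted p = 0.0854; DESeq2 44). Spp1 was at -4.42 ± 0.96 (adjusted p = 0.0854), with an unscaled median of 4.07 CPM in zones 3 to 5 and 44.4 CPM in zones 1 and 2. The neuronal genes did not pass: Snap25 was at 0.77 ± 0.52 and Thy1 at 0.21 ± 0.57, and the neuron list had a median of 0.19 with 11 of 20 above 0. Of the microglial and lysosomal genes, Ctsd was at -2.04 ± 0.59 and Cx3cr1 at -2.25 ± 0.59 (adjusted p = 0.17 and 0.167). Of the 19 myelin genes 6 were higher in zones 3 to 5 at an unadjusted p under 0.05, with a median of 0.66. Mbp was at 1.12 ± 0.31 (adjusted p = 0.17).

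These values were then taken without 4 libraries, zone 1 replicates 1 and 5, zone 3 replicate 1 and zone 5 replicate 3, in a fit added after seeing the data. It called 0 of 11644 genes (1003 at an unadjusted p under 0.05, 5% higher and 3.62% lower; lowest adjusted p = 0.12). The neuronal signs turned, with Snap25 at -0.20 ± 0.39 and Thy1 at -0.63 ± 0.35, and 1 of 20 neuron genes lay above 0 (median -0.29, 0 higher and 0 lower). Ctsd was at -1.23 ± 0.41, Cx3cr1 at -0.68 ± 0.44 and Spp1 at -2.45 ± 0.91 (adjusted p = 0.367, 0.669 and 0.436). Malat1 was at 0.48 ± 0.29 (adjusted p = 0.65). Of the myelin genes 13 of 19 were then higher at an unadjusted p under 0.05, with a median of 0.96, and Mbp was at 1.14 ± 0.28 (adjusted p = 0.299).

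None of 4 measures of the libraries passed its test between the groups. Mitochondrial ribosomal RNA took 73.1% ± 6.3 of all counts in the zones and 76.6% ± 3.9 in uninjured tissue (SD, n = 15 and 5; adjusted p = 0.512, 2-sided exact permutation test over 4 measures). Mitochondrial mRNA took 14.7% ± 4.3 and 14.8% ± 3.3 of counts outside ribosomal RNA (adjusted p = 0.963, exact permutation). The zones had 14062 ± 3636 genes detected and uninjured tissue 15560 ± 1646 (adjusted p = 0.529, exact permutation). Olfactory and vomeronasal receptor genes, known from sensory epithelia of the nose, had a summed level of 106 ± 95.1 CPM in the zones and 35.7 ± 34.2 CPM in uninjured tissue (adjusted p = 0.512, exact permutation).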

How the data were processed

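Raw counts per gene were deposited by the authors in 1 table of 48795 gene identifiers and 82 columns, whole numbers without normalization; 48435 identifiers have a symbol, and 0 columns were left without a sample. The submitters' processing notes name GRCm38 and mm10 as builds; which aligner, counter, annotation and strand setting made the counts was not stated. Column letters were read as L for white matter and S for sham, which the labels do not spell out. Gene positions and exon lengths come from the GENCODE annotation of GRCm38.

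The 359 genes annotated as ribosomal RNA, with a few genes known to collect its reads (such as Lars2), were set aside. Tests used edgeR 4.0.16 in R 4.3.3 on the counts: filterByExpr (minimum count 10, minimum total 15), TMM, robust quasi-likelihood fit, Benjamini-Hochberg over all genes tested, threshold 0.05, without covariates. Standard errors are the fold change over the square root of F. CPM take the counts of tested genes times the TMM factor as the total. DESeq2 1.42.0, limma 3.58.1 (voom with sample quality weights), other scalings, no filter, ribosomal RNA kept, pooling by zone means or by summed replicate number, all white matter groups in 1 fit, a replicate block and leaving out libraries were alternatives. The fit was tested on simulated data. All 40 replicate pairs differed beyond sampling noise, the closest at a chi-square of 27.1 times its degrees of freedom.

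The groups, the 35 gene lists and the tests were chosen with earlier results of these data known. The 2 gene-poor libraries were likewise known. Named genes were the 8 with the lowest unadjusted p in each direction since under 5 passed, up to 4 list members with the lowest p, the most abundant member of a list, and 13 reference genes; of these the text takes a selection. Counting precision is overstated by the totals, since amplified reads carry no molecular identifiers. No sequences are shown. A few genes that enter the counts and lists are not reported here by name.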

Additional observations from a re-analysis of the deposited data

Results flagged for a closer look

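In groups of 5, a library was taken to stand apart where its gap to the nearest one exceeded Dixon's critical share of the range. This held in 20 of 84 groups tested. The critical share is set to be passed in about 1 in 20 groups of normally distributed values. The CPM were not taken as logs, and the groups reuse the same 20 libraries. How many groups would pass by chance is therefore not known. Of the 20, 5 were zone 3 replicate 1 and 7 zone 5 replicate 3, both gene-poor.

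Zone 3 replicate 1 was the highest of its zone for Snap25 (9527 CPM), Vim (1801 CPM), Gfap (6027 CPM), Slc1a2 (11410 CPM) and Malat1 (201700 CPM). Zone 5 replicate 3 was the highest of its zone for Snap25 (8212 CPM), Thy1 (1610 CPM), Diras2 (4580 CPM), Ctsb (2398 CPM), Aqp4 (1189 CPM) and Slc1a2 (23720 CPM), and the lowest for Csf1r (2.48 CPM).

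Zone 4 replicate 3 was the highest of its zone for Snap25 (5602 CPM) and the lowest for Ctsd (45.0 CPM). For Lncpint, zone 3 replicate 4 (7.53 CPM) and zone 4 replicate 2 (10.99 CPM) were the highest of their zones. Uninjured replicate 2 was the highest for C1qc (37.4 CPM), and uninjured replicate 3 the lowest for Vim (15.5 CPM). Zone 4 replicate 4 had the lowest share of mitochondrial ribosomal RNA of its zone (57.3%), and zone 3 replicate 5 the highest share of mitochondrial mRNA of its zone (17.7%).

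The difference among zones 3, 4 and 5, tested over their means with edgeR, gave 266 genes; without both gene-poor libraries it gave 0.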

How the results depend on the processing

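In the pooled comparison edgeR called 0 genes. It called 605 without a low-count filter, 2 with the zones summed by number, 3 with all white matter groups in 1 fit, and, added after seeing the data, 2 without scaling and 4 without scaling and gene-poor libraries. DESeq2 called 66 and limma voom 79, and without the gene-poor libraries 181 and 151 (both added). Zone 3 (0) gave 409 without the filter, 294 with DESeq2 and 20 without the gene-poor libraries. Zone 4 (0) gave 13, 43 and 5 in that order, and zone 5 (1) gave 268, 61 and 0, and 0 with DESeq2 size factors. The 266 genes among zones became 618 with those size factors, 1660 without the filter, 91 with DESeq2's likelihood ratio test and 0 without the gene-poor libraries. Against zones 1 and 2 the count of 0 became 5, 3512 and 44 with the size factors, without the filter and with DESeq2.

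With 1 library left out, the counts ran from 0 to 1 pooled (1 without uninjured replicate 1), 0 to 52 in zone 3, 0 to 0 in zone 4, 0 to 10 in zone 5, 0 to 444 among zones and 0 to 4 against zones 1 and 2. From the 18 libraries, added after seeing the data, they ran from 3 to 28 in zone 3 and from 2 to 14 in zone 4. The difference in mitochondrial mRNA share, -0.0998 percentage points, was 0.587 without the gene-poor libraries and ran from -0.759 to 1.26 with 1 library left out.

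The deviations of same-numbered libraries had correlations of -0.131 to 0.152, with 2 of 30 pairs above 0.1. Of 20 libraries 9 correlated best with their own number, a hint from the data only. By the rule that every correlation be above 0.1 same-numbered libraries were not taken as pairs. The 30 pairs also set zone libraries against uninjured ones, which may come from other mice, though the labels do not say so. The rule could thus fail even where zones of 1 number share an animal, and it cannot decide this. Whether same-numbered libraries share an animal is not given. With a replicate block the counts were 0 pooled, 0 in zones 3 and 4, 1 in zone 5, 0 among zones and 1 against zones 1 and 2.

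The sign of these pooled log2 values turned. Gfap was -0.0694 with DESeq2, -0.13 with limma voom, -0.0628 without the gene-poor libraries, -0.16 with sums, -0.00623 without scaling and -0.0231 and -0.18 with DESeq2 and limma voom without the gene-poor libraries; it ran from -0.15 (without zone 3 replicate 1) to 0.37 with 1 library left out. Opalin was -1.30, -1.20, -1.22 and -1.10 with DESeq2, limma voom, the gene-poor libraries out and the replicate block, and -1.16, -1.19 and -1.26 without the gene-poor libraries in the unscaled, DESeq2 and limma voom fits; it ran from -1.35 (without zone 3 replicate 1) to 2.97. Mbp was 0.23 with DESeq2 size factors and with DESeq2 and 0.0289 with limma voom without the gene-poor libraries; it ran from -0.31 to 0.0411 (without uninjured replicate 4). Malat1 was 0.11 with DESeq2 size factors. Aldh1l1 was 0.00633 and 0.0860 with limma voom on all and on 18 libraries. The cause of these changes was not tested. Depth limits genes with few counts most, since 1582050 to 4947295 counts per library lay outside ribosomal RNA.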
